A study of Mus musculus with 11 samples.

Results

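The nuclear genes for subunits of the oxidative phosphorylation machinery were followed in podocytes sorted from healthy and nephritic mice. They were taken by symbol, as the protein-coding mouse genes whose names begin with Ndufa, Ndufb, Ndufc, Ndufs or Ndufv and a digit, with Uqcr or with Atp5, together with Sdha, Sdhb, Sdhc, Sdhd, Cyc1 and the Cox4, Cox5, Cox6, Cox7 and Cox8 genes. Of the 34468 genes in the files, 86 carried such a symbol, and 79 of these reached a mean of at least 1 CPM, counts scaled to the same library total, over the 11 libraries. Complex I was represented by 35 of the 79, complex II by 4, complex III by 9, complex IV by 14 and complex V by 17. Ndufa4, first described as a complex I subunit and now placed with cytochrome c oxidase, was counted with complex IV, as was the supercomplex factor Cox7a2l. Atp5s, also known as coupling factor B, was kept with complex V because its symbol fits the rule.

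All mice were on a C57BL/6 background (C57BL/6N in the study's methods) and carried an allele that drives both the Cre recombinase and the red fluorophore mTomato in podocytes. Control mice with this allele and wild-type Myd88, called PodTOM here, gave 3 libraries from healthy and 3 from nephritic animals. MyD88pko mice, which carried floxed Myd88 on both chromosomes besides the Cre allele, gave 2 libraries from healthy and 3 from nephritic animals. Nephrotoxic nephritis (NTN), an antibody-mediated glomerulonephritis, was induced in male mice of 8 to 16 weeks by intravenous sheep serum against glomeruli, 9 µl per gram of body weight on 2 consecutive days, and podocytes were collected on day 5. The ages of the healthy animals are not given per library, and the names of PodTOM and MyD88pko libraries carry different prefixes whose meaning is not stated, so any difference that follows the prefix cannot be told apart from genotype. Glomeruli were isolated with magnetic beads and living mTomato-positive cells were sorted from them, so a cell that had lost its fluorophore would not have been collected. The comparisons ask how healthy podocytes differ from nephritic ones, and whether the loss of MYD88, the adaptor of most Toll-like receptors and of the interleukin-1 receptor, alters either state.

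Oxidative phosphorylation takes place in the inner mitochondrial membrane. Complex I oxidises NADH and complex II oxidises succinate, both passing electrons through ubiquinone to complex III and by cytochrome c to complex IV, which reduces oxygen. Complexes I, III and IV pump protons, and complex V, the ATP synthase, uses the gradient to make ATP. Complex II is encoded in the nucleus alone, whereas the other complexes combine nuclear subunits with a few read from the mitochondrial genome, so that both genomes have to supply parts of 1 machine. Podocytes, post-mitotic cells that wrap the capillaries of the glomerulus, draw ATP from mitochondria and from glycolysis.

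The libraries held between 14563271 and 32764201 estimated counts. Myd88 stood at 5.80 to 7.75 CPM in healthy and 7.86 to 13.9 CPM in nephritic PodTOM libraries, and at 0.191 to 0.949 and 0.429 to 0.543 CPM in the MyD88pko ones, in accord with the labels. The 8 podocyte markers together made up 37282 to 49321 scaled CPM in healthy PodTOM libraries and 27338 to 32127 with NTN, against 38889 to 41692 and 27921 to 40527 in MyD88pko. With NTN 5 of these markers fell and 1 rose in PodTOM, and 2 fell and 1 rose in MyD88pko. Of the 15 proximal tubule markers, genes of the mitochondria-rich tubule next to the glomerulus, none changed in PodTOM with NTN and their sum lay at 27.7 to 108 scaled CPM in healthy and 44.2 to 82.0 in nephritic libraries; in MyD88pko Cubn rose and Kap fell, and the sum was 45.7 to 64.2 and 40.6 to 62.4. Endothelial markers moved with NTN (6 of 10 rose and Plat fell in PodTOM, 2 rose and Plat fell in MyD88pko), while their sum was 1939 to 2738 scaled CPM in healthy and 1088 to 1324 in nephritic PodTOM, and 2241 to 2250 and 1110 to 1462 in MyD88pko. Of 10 mesangial markers 4 rose in PodTOM and none in MyD88pko, with sums of 117 to 189 and 138 to 244, and 109 to 111 and 118 to 142. Of 10 macrophage markers 2 rose and Csf1r fell in PodTOM, and Adgre1 rose and Csf1r fell in MyD88pko, with sums of 81.4 to 98.1 and 70.1 to 88.2, and 73.7 to 94.7 and 56.9 to 66.8. Over all genes tested, 15.9% rose and 9.94% fell with NTN in PodTOM, and 11.3% rose and 8.22% fell in MyD88pko. No marker of these lists was at 0 over the 11 libraries. All 6 nephritic libraries also carried reads over satellite-like predicted genes (19452 to 82528 CPM, against 2.09 to 6.45 in healthy libraries) and over vomeronasal receptor genes (130.4 to 474 against 60.7 to 91.2 CPM). The part of these features in the results was not tested, beyond the values given below without the 3 libraries with most vomeronasal signal and with that signal as a covariate. How many mice gave the cells of 1 library is not stated, so the p-values measure the spread between libraries, and in bulk libraries fewer cells of a type and less RNA per cell cannot be told apart.

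Many promoters of nuclear respiratory genes are known to carry sites for the transcription factors NRF1, GABP and YY1, and stretches of promoter are shown here to make that shared regulatory sequence visible. RefSeq promoter windows (GRCm38.p6, 250 bases before to 50 after the start site) were matched for 66 of the 79 genes. Some genes had more than 1 window, and a gene counted once if any of them held a match. An NRF1 core, CGCANGCG on either strand, was found in 25 of the 66 genes (37.9%), against 12.5% of the 17492 protein-coding genes with a window. The GABP core CCGGAAG was found in 16 (24.2%, against 12.9%) and the YY1 element AAGATGGC in 10 (15.2%, against 3.57%). At least 1 of the 3 was in 42 genes (63.6%, against 25.0%), and no use of these sites in podocytes was measured. The 10 genes with the smallest adjusted p among those that rose with NTN in PodTOM include 5 with a match, of which Cox6a1 held most. Its 250 bases before the start site (chr5:115348959-115349208, minus strand) are given 5′ to 3′ with 2 NRF1 cores and 1 GABP core in capitals.
Cox6a1: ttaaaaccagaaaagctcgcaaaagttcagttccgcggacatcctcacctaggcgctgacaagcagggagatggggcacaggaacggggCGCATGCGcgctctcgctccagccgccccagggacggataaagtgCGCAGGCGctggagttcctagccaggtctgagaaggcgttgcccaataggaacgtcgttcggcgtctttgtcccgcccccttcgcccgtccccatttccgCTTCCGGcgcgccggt
The matches of the other 4 genes are shown with 11 bases on each side, again with the core in capitals. They lie at chr10:80142322-80142351 (plus strand) for Atp5d, chr2:73911295-73911324 (minus) for Atp5g3, chr7:30626125-30626153 (minus) for Cox6b1, and chr10:80406870-80406898 and chr10:80406808-80406837 (minus) for Uqcr11.
Atp5d, NRF1: agaatcctgtgCGCGTGCGttcttgtggga
Atp5g3, NRF1: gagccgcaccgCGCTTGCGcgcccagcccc
Cox6b1, GABP: tcctctcgcagCTTCCGGccagtcggaat
Uqcr11, GABP: ttctctcctccCCGGAAGtagatgtcaat
Uqcr11, NRF1: gatcgccttcaCGCATGCGctatacgtctg

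In healthy podocytes the 79 genes together supplied 4759, 5162 and 5288 TPM, a level per transcript length, in PodTOM and 5204 and 4849 TPM in MyD88pko. With NTN the sum was 9458, 8317 and 8768 TPM in PodTOM and 13717, 12168 and 13104 TPM in MyD88pko. No nephritic library overlapped with a healthy one, and the 3 nephritic MyD88pko libraries lay above the 3 nephritic PodTOM libraries. The TPM values of a library add up to a fixed total, which the satellite-like genes share. They took 145659 to 252685 TPM in nephritic PodTOM, 69377 to 135515 in nephritic MyD88pko and 7.71 to 24.5 in healthy libraries. Their part in these sums was not tested. On the scale used for the tests, CPM after scaling by the trimmed mean of M-values (TMM), the sum was 2037 ± 58.4 (SD, n = 3) in healthy PodTOM, 1995 ± 73.9 (n = 2) in healthy MyD88pko, 3493 ± 119 (n = 3) in nephritic PodTOM and 4481 ± 639 (n = 3) in nephritic MyD88pko. The highest-expressed gene per transcript length was Atp5b, the catalytic beta subunit of ATP synthase on chromosome 10, at 408 ± 54.1 TPM (SD, n = 3) in healthy PodTOM. The lowest of complex I was Ndufa11, a membrane-arm subunit, at 2.5 ± 1.21 TPM, a value that rests on an uncertain deposited length. Within the smaller complex II the flavoprotein subunit Sdha was at 100.3 ± 1.05 TPM and the iron-sulfur subunit Sdhb at 23.1 ± 4.84 TPM. Subunits that are assembled in fixed proportions, such as Sdha and Sdhb, thus had transcript levels that were far apart.

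**Figure D1:**
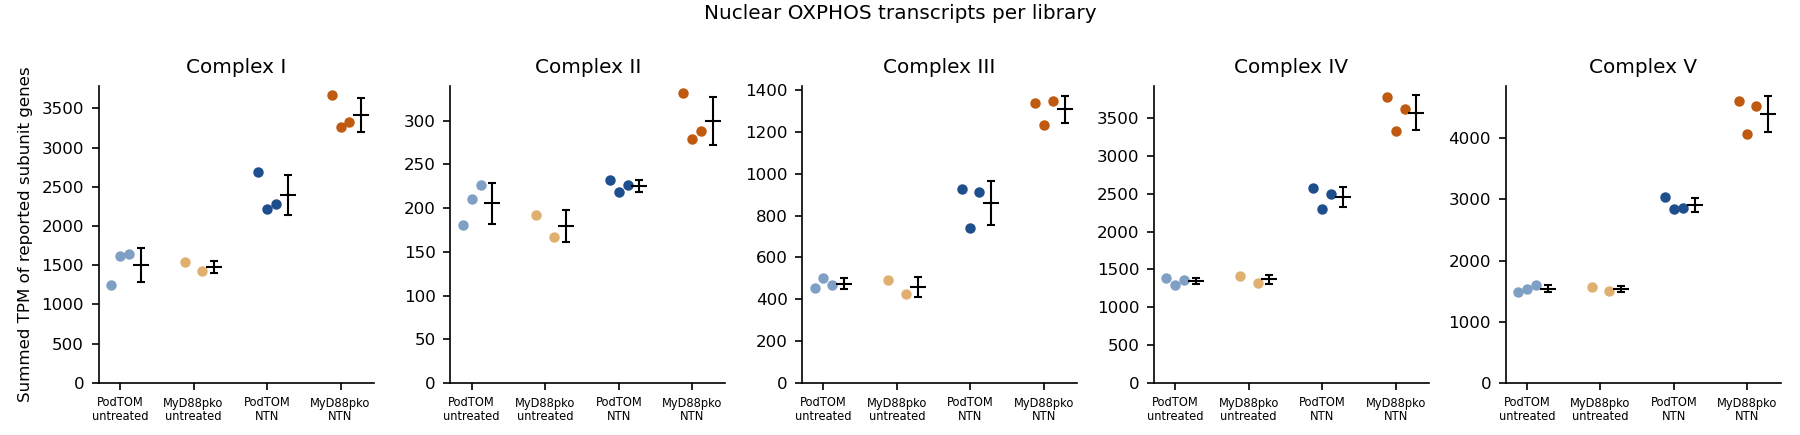
Summed TPM of the reported subunit genes of each complex (vertical axis) in every library, by genotype and disease state. Points are libraries, and the black marks are the mean ± SD of the 2 or 3 libraries. In complex V the nephritic MyD88pko mean was 4397 TPM and the nephritic PodTOM mean 2907 TPM, above 1540 TPM in both healthy groups. The satellite-like genes share the TPM total, unequally between groups, as given in the text.

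In PodTOM podocytes, NTN went with higher transcript levels of most of these genes. Of the 79, 56 rose and 1, Ndufb2, fell, by edgeR's quasi-likelihood test with adjustment over all 21180 genes tested, where 15.9% rose and 9.94% fell. The median log2 fold change was 0.83, against 0.19 over all genes. In 65 of the 79 every nephritic library lay above every healthy one, which held for 26.8% of all genes. Without the 3 nephritic libraries with most vomeronasal signal, 38 of the 79 rose where 7.15% of all genes did, and with that signal as a covariate 36 rose where 2.94% did. The vomeronasal signal was higher in every nephritic than in every healthy library, so the covariate cannot be fully separated from disease state. On the scale of log2(TPM + 1), 49 of the 79 rose where 7.7% of all genes rose and 19.1% fell.

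The same direction was seen in MyD88pko. There 63 of the 79 rose and Ndufb2 fell, where 11.3% of all genes rose and 8.22% fell, and the median log2 fold change was 1.30 against 0.16 over all genes. Nephritic and healthy libraries did not overlap in 70 genes that were higher with NTN, against 29.1% of all genes. Without the second healthy MyD88pko library, which leaves 1 healthy MyD88pko library, 37 rose where 2.81% of all genes did. Without the 3 nephritic libraries with most vomeronasal signal, which leaves 1 nephritic MyD88pko library, 49 rose where 3.55% did. In both fits the lone library is assumed to vary like the other groups. On the scale of log2(TPM + 1), 67 of the 79 rose where 8.25% of all genes rose and 11.5% fell. The 2 genotypes had different healthy controls, and 51 genes rose in both. Only called in PodTOM were Atp5o, Cox5b, Cox6b2, Ndufb7 and Ndufb8, and only called in MyD88pko were 12, among them Uqcrc1, Uqcrc2, Uqcrfs1, Ndufs3 and Ndufv1; the difference between the 2 responses did not pass edgeR's test for any of these, and DESeq2 called it for Uqcrc1. Neither response passed for Atp5s, Cox7a1, Ndufa10, Ndufb9, Ndufb10, Ndufs1, Ndufv2, Ndufv3, Sdha and Sdhb.

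**Figure D2:**
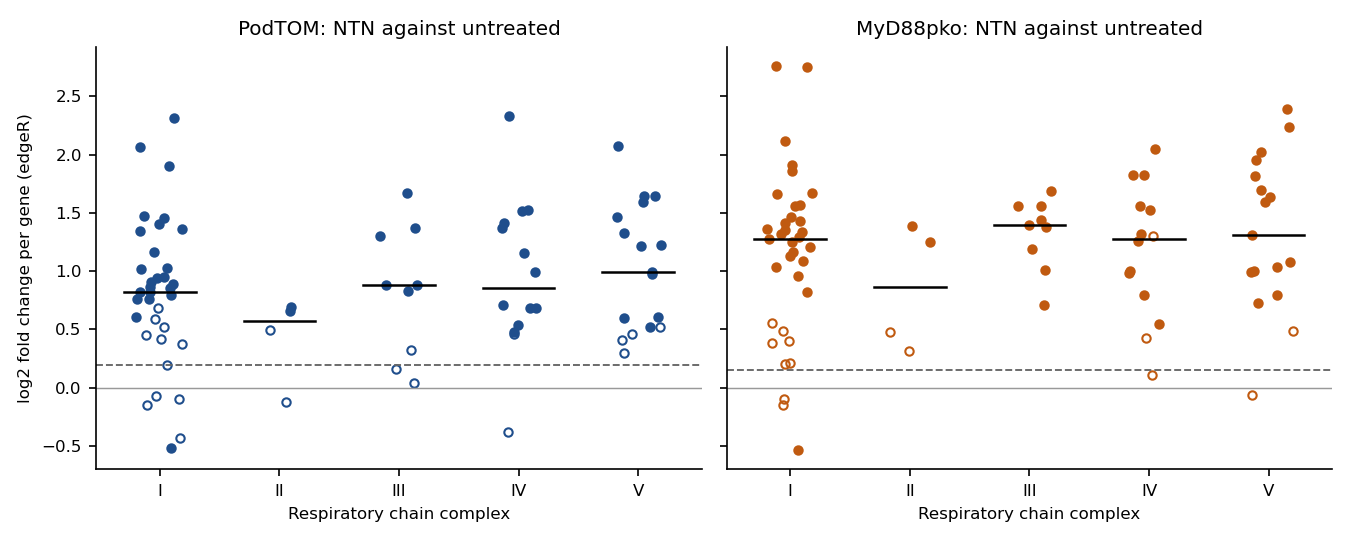
The log2 fold change of NTN against untreated (vertical axis, edgeR) for each of the 79 genes, by complex, in PodTOM (left) and MyD88pko (right). Filled points passed an adjusted p of 0.05, open points did not, black bars are the medians of a complex and the dashed line is the median of all 21180 genes, 0.19 and 0.16. The medians of complexes I and V were 0.82 and 1.00 in PodTOM and 1.27 and 1.31 in MyD88pko.

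Complex I, the NADH dehydrogenase, is an L-shaped assembly with a hydrophilic arm that holds the flavin and iron-sulfur centres and a membrane arm that pumps protons. Of its 35 genes, 23 rose in PodTOM and 26 in MyD88pko. Ndufa1, a small membrane-arm subunit encoded on the X chromosome (chrX:37187588-37191163, GRCm38), stood at 11.3, 8.42 and 9.11 scaled CPM in healthy PodTOM and 46.9, 38.4 and 34.7 with NTN. In MyD88pko it stood at 8.71 and 6.54 and 52.5, 45.98 and 55.2 scaled CPM. The groups did not overlap, with a log2 fold change of 2.06 ± 0.20 (adjusted p = 6.10e-06) in PodTOM and 2.75 ± 0.24 (adjusted p = 4.97e-06) in MyD88pko. Ndufb6, an accessory membrane-arm subunit, stood at 4.4, 5.23 and 2.55 scaled CPM in healthy and 15.6, 11.1 and 19.1 in nephritic PodTOM, and at 3.5 and 2.45 and 21.2, 18.2 and 21.3 in MyD88pko. It was among the largest rises of complex I, at 1.90 ± 0.30 (adjusted p = 4.42e-04) and 2.76 ± 0.37 (adjusted p = 1.52e-04) on the log2 scale, although 34.4% of the 31-base words of its transcripts also occur in transcripts of the gene Smim27.

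The core subunits of the hydrophilic arm, which carry the flavin and iron-sulfur centres, did not move as a block. Ndufs7 and Ndufs8, which bind the last iron-sulfur clusters before ubiquinone, rose in both genotypes, by 1.16 and 1.34 in PodTOM and 1.41 and 1.21 in MyD88pko on the log2 scale. Ndufv1, the NADH-binding flavoprotein, rose in MyD88pko (1.35 ± 0.32 (adjusted p = 0.00754)) but not detectably in PodTOM, where 13.7, 22.5 and 31.2 scaled CPM in healthy and 34.5, 21.1 and 21.5 in nephritic libraries overlapped. Ndufs3, a connecting subunit, rose in MyD88pko (1.86 ± 0.38 (adjusted p = 0.00344)), with 0.68 ± 0.32 (adjusted p = 0.117) in PodTOM, where every nephritic library was nonetheless above every healthy one. The difference between the responses did not pass for either gene. The partner of Ndufv1 in the flavin module, Ndufv2, had 34.5, 24.5 and 20.04 scaled CPM in healthy and 23.6, 18.4 and 16.6 in nephritic PodTOM, and 23.5 and 32.6 and 26.7, 22.8 and 26.2 in MyD88pko. Ndufs1, the largest iron-sulfur subunit, had 38.7, 75.1 and 68.5 and 56.7, 55.8 and 58.5 scaled CPM in PodTOM. Neither Ndufv2 nor Ndufs1 passed the test in either genotype, with log2 fold changes of -0.43 ± 0.23 and -0.09 ± 0.20 in PodTOM.

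Ndufs6, an accessory zinc-binding subunit of the same arm, had 12.7, 10.01 and 14.4 scaled CPM in healthy and 23.2, 19.4 and 24.3 in nephritic PodTOM. In MyD88pko it went from 5.72 and 7.47 to 29.97, 27.2 and 28.4 scaled CPM. The healthy MyD88pko libraries were below the healthy PodTOM ones, and the rise was 2.11 ± 0.26 (adjusted p = 7.07e-05) on the log2 scale in MyD88pko against 0.85 ± 0.21 (adjusted p = 0.00883) in PodTOM. Ndufb2 was the exception of the family. Its counts stood at 46.7, 58.8 and 57.4 scaled CPM in healthy and 38.9, 37.2 and 37.98 in nephritic PodTOM, and at 46.9 and 51.9 and 33.1, 30.8 and 38.5 in MyD88pko, with log2 fold changes of -0.51 ± 0.16 (adjusted p = 0.0265) and -0.53 ± 0.18 (adjusted p = 0.0426). The groups did not overlap in either genotype. Its TPM values did overlap, at 41.4, 100.3 and 82.6 in healthy and 73.02, 55.3 and 58.8 in nephritic PodTOM, and with counts scaled for transcript length the MyD88pko estimate turned to 0.21 (adjusted p = 0.632). Ndufa11, the least abundant of complex I in healthy PodTOM per transcript length, had 1.78, 3.63 and 4.6 scaled CPM in healthy and 16.1, 19.05 and 15.2 in nephritic PodTOM (log2 fold change 2.31 ± 0.36 (adjusted p = 3.83e-04)), and 11.3 and 4.2 and 19.2, 17.002 and 21.9 in MyD88pko (1.32 ± 0.40 (adjusted p = 0.029)). Its 31-base words were shared to 20.4% with the processed pseudogene Ndufa11b. The place of Ndufa11 as least abundant rests on its deposited length, which is uncertain.

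**Figure D3:**
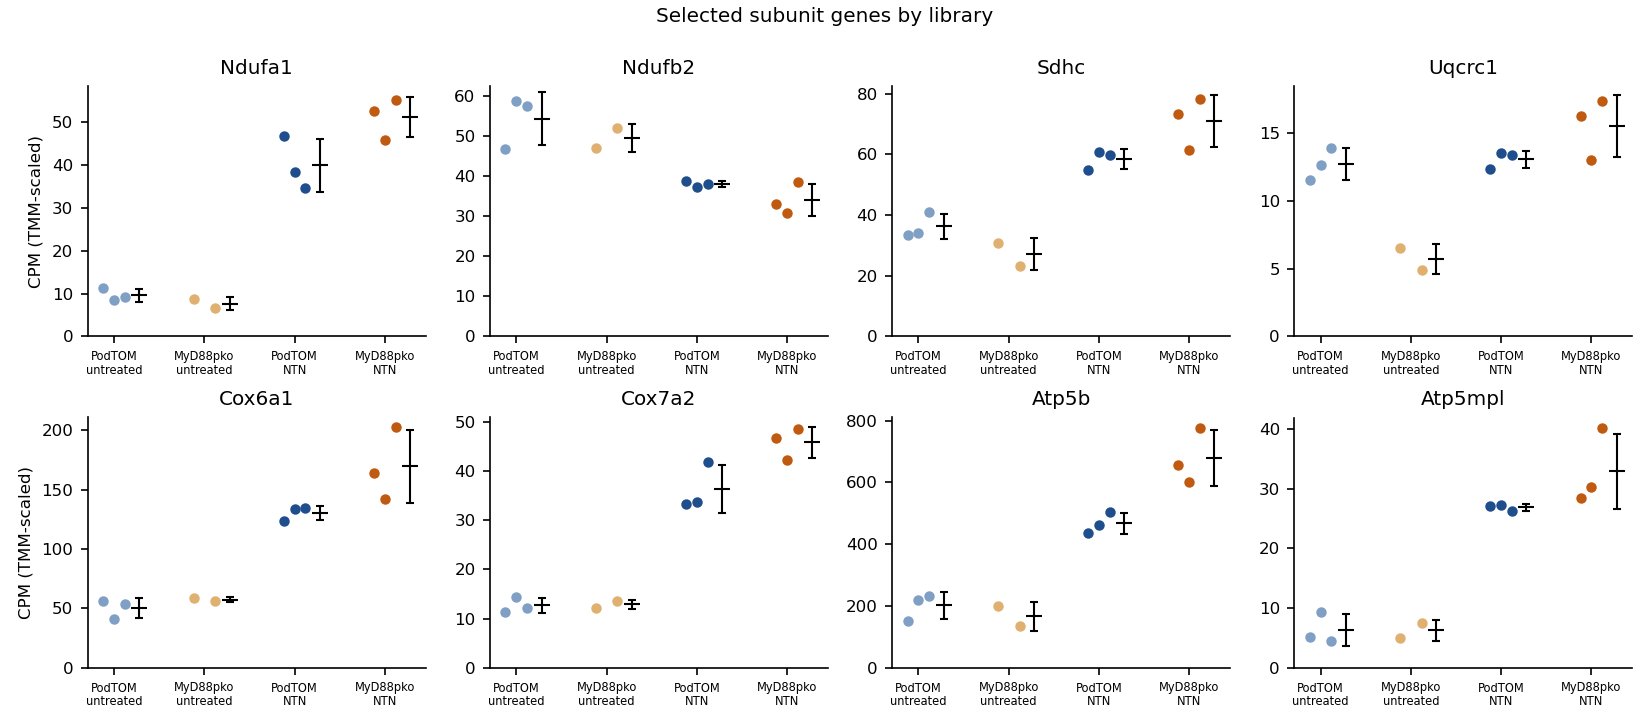
TMM-scaled CPM (vertical axis) of 8 subunit genes in every library, by genotype and disease state. Points are libraries and black marks the mean ± SD of 2 or 3 libraries. Ndufb2 was lower with NTN in both genotypes, the other 7 had higher nephritic means, and Uqcrc1 had its lowest values in the 2 healthy MyD88pko libraries.

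Complex II, succinate dehydrogenase, links the tricarboxylic acid cycle to the chain and has no mitochondrially encoded part. Its membrane anchors rose and its catalytic subunits did not pass the test. Sdhc, an anchor that holds the haem, stood at 33.6, 34.2 and 41.04 scaled CPM in healthy and 54.8, 60.7 and 59.9 in nephritic PodTOM, and at 30.8 and 23.4 and 73.4, 61.5 and 78.2 in MyD88pko. Its log2 fold changes were 0.69 ± 0.17 (adjusted p = 0.00666) and 1.39 ± 0.19 (adjusted p = 1.95e-04). Sdhd, the other anchor, stood at 19.1, 24.1 and 23.7 and 33.7, 39.1 and 32.8 scaled CPM in PodTOM and at 25.2 and 18.3 and 51.8, 48.7 and 55.1 in MyD88pko, with 0.66 ± 0.18 (adjusted p = 0.0142) and 1.25 ± 0.21 (adjusted p = 7.85e-04). No healthy library of either anchor overlapped with a nephritic one. Sdha, the flavoprotein, stood at 129, 129 and 117 scaled CPM in healthy and 107, 112 and 125 in nephritic PodTOM, and at 112 and 104 and 134, 109 and 160.3 in MyD88pko. The ranges overlapped, with log2 fold changes of -0.12 ± 0.15 (adjusted p = 0.581) and 0.32 ± 0.17 (adjusted p = 0.194). For the iron-sulfur subunit Sdhb the estimates were 0.49 ± 0.23 (adjusted p = 0.122) and 0.48 ± 0.26 (adjusted p = 0.19). Every nephritic library was nonetheless above every healthy one for Sdhb in both genotypes. The difference between anchors and catalytic subunits was not tested.

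Complex III, the cytochrome bc1 complex, passes electrons from ubiquinol to cytochrome c. Of its 9 genes, 6 rose in PodTOM and all 9 in MyD88pko. Cyc1, the haem-bearing cytochrome c1, stood at 14.1, 12.2 and 13.8 scaled CPM in healthy and 23.1, 24.4 and 26.5 in nephritic PodTOM, with a log2 fold change of 0.88 ± 0.22 (adjusted p = 0.00744). In MyD88pko it stood at 12.5 and 18.3 and 29.9, 30.999 and 44.1 scaled CPM, with 1.19 ± 0.25 (adjusted p = 0.00371). Uqcr11, a small accessory subunit, had the smallest adjusted p of the complex in PodTOM. It stood at 14.7, 15.4 and 11.1 scaled CPM in healthy and 40.8, 37.7 and 52.4 in nephritic PodTOM, and at 20.2 and 13.5 and 50.3, 48.4 and 64.3 in MyD88pko, with 1.67 ± 0.22 (adjusted p = 7.00e-05) and 1.69 ± 0.25 (adjusted p = 2.92e-04) on the log2 scale. Its promoter holds both the GABP and the NRF1 core shown above. The 3 members that passed in MyD88pko alone were the Rieske iron-sulfur protein Uqcrfs1 (1.01 ± 0.27 (adjusted p = 0.0172), against 0.32 ± 0.24 (adjusted p = 0.332) in PodTOM) and the core proteins Uqcrc1 and Uqcrc2. Uqcrc2 stood at 35.996, 36.3 and 33.5 scaled CPM in healthy and 35.8, 43.2 and 39.2 in nephritic PodTOM, and at 28.8 and 30.002 and 43.7, 45.8 and 54.6 in MyD88pko (0.71 ± 0.18 (adjusted p = 0.0133)). Uqcrc1 stood at 11.5, 12.7 and 13.9 and 12.3, 13.5 and 13.4 scaled CPM in PodTOM, where the ranges overlapped, and at 6.5 and 4.94 and 16.2, 13.002 and 17.4 in MyD88pko. Its fold change in MyD88pko was 1.44 ± 0.28 (adjusted p = 0.00213), and its 2 healthy MyD88pko values were the lowest of the 11 libraries.

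Complex IV, cytochrome c oxidase, reduces oxygen to water. Of its 14 genes, 12 rose in PodTOM and 11 in MyD88pko. Cox6a1, the ubiquitous form of a regulatory subunit, was the most abundant of the complex, at 219, 187 and 252 TPM in healthy and 502, 484 and 486 TPM in nephritic PodTOM. In MyD88pko it was at 263 and 239.8 and 786, 679.9 and 769.9 TPM. Every nephritic library was above every healthy one, and the count-based log2 fold changes were 1.37 ± 0.17 (adjusted p = 3.91e-05) and 1.56 ± 0.19 (adjusted p = 7.07e-05). Cox7c, Cox6b1 and Cox7a2, small subunits around the catalytic core, rose by 1.41, 1.52 and 1.51 in PodTOM and by 1.83, 2.05 and 1.83 in MyD88pko on the log2 scale. Their adjusted p-values in PodTOM were 3.57e-05, 1.05e-04 and 4.23e-05. Cox6b1 stood at 19.6, 15.9 and 13.3 scaled CPM in healthy and 42.8, 46.5 and 50.8 in nephritic PodTOM, and at 17.5 and 11.5 and 63.8, 49.6 and 66.9 in MyD88pko. Cox4i1, which binds ATP and tunes the enzyme, stood at 26.9, 37.8 and 33.4 and 67.2, 66.01 and 61.8 scaled CPM in PodTOM and 30.3 and 36.4 and 77.02, 73.1 and 99.97 in MyD88pko, with 0.99 ± 0.17 (adjusted p = 8.21e-04) and 1.32 ± 0.20 (adjusted p = 3.95e-04). Cox8a, Cox7b and Ndufa4 rose in both genotypes too, by 0.71, 1.16 and 0.69 in PodTOM on the log2 scale. Cox5b rose in PodTOM (0.54 ± 0.16 (adjusted p = 0.025)), with 0.11 ± 0.18 (adjusted p = 0.689) in MyD88pko, and its protein-coding transcripts alone gave 0.18 (adjusted p = 0.43) in PodTOM and -0.55 (adjusted p = 0.0429) in MyD88pko.

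Several complex IV subunits exist as a ubiquitous and a tissue-restricted form, and in podocytes the ubiquitous ones had the higher levels. Under 1 CPM were Cox4i2 (0.171 mean CPM), a form known from lung, Cox6a2 (no count in any library), Cox8b (0.238 CPM), forms of heart and skeletal muscle, Cox7b2 (0.916 CPM) and Cox8c (0.22 CPM), and Ndufa4l2, a relative of Ndufa4, at 0.227 CPM. A second locus annotated as Atp5o had no count either. Just above the limit were Cox7a1, the muscle form, at 1.19 mean CPM, and the testis form Cox6b2 at 1.92. Cox7a1 stood at 0.618, 1.27 and 2.51 scaled CPM in healthy and 1.45, 1.46 and 0.474 in nephritic PodTOM, with no separation of the groups. Cox6b2 stood at 0.54, 0.794 and 0.44 scaled CPM in healthy and 3.14, 2.89 and 3.03 in nephritic PodTOM (2.33 ± 0.57 (adjusted p = 0.0073)), and at 0.91 and 1.13 and 2.38, 3.53 and 1.66 in MyD88pko (1.30 ± 0.62 (adjusted p = 0.143)), and made up 1.91 to 11.4% of the summed TPM of Cox6b1 and Cox6b2 over the 11 libraries. Within the Cox7a family, the share of Cox7a2 in the TPM was 37.7%, 45.2% and 41.6% in healthy and 56.9%, 58.5% and 63.8% in nephritic PodTOM libraries. In MyD88pko it was 41.1% and 42.0%, and 61.5%, 62.4% and 61.7% with NTN. The share did not overlap between disease states in either genotype, as Cox7a2l rose less, by 0.47 ± 0.16 (adjusted p = 0.0418) in PodTOM and 0.55 ± 0.18 (adjusted p = 0.0459) in MyD88pko; these 2 calls were lost under 15 and 13 of 23 alternative settings.

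Complex V consists of the catalytic F1 head, a stalk, and a proton-driven ring of c subunits in the membrane. Of its 17 genes, 13 rose in PodTOM and 15 in MyD88pko. Atp5b, the subunit that forms ATP (chromosome 10), stood at 153, 219 and 234 scaled CPM in healthy and 438, 463 and 505 in nephritic PodTOM, a log2 fold change of 1.21 ± 0.19 (adjusted p = 3.03e-04). In MyD88pko it stood at 201 and 134 and 657, 602 and 777 scaled CPM, with 2.02 ± 0.22 (adjusted p = 2.90e-05). Its partner in the head, Atp5a1, stood at 213, 163 and 178 and 253, 269.7 and 270.3 scaled CPM in PodTOM and at 154 and 178 and 319.6, 302 and 399 in MyD88pko. The groups did not overlap for either gene, but the rise of Atp5a1 was smaller, at 0.52 ± 0.15 (adjusted p = 0.0205) and 1.03 ± 0.18 (adjusted p = 9.28e-04). Of the rotor and stalk, Atp5d (delta subunit) stood at 30.3, 19.6 and 18.8 scaled CPM in healthy and 54.6, 57.3 and 59.5 in nephritic PodTOM, with 1.32 ± 0.20 (adjusted p = 2.26e-04), and at 17.7 and 15.3 and 69.7, 70.997 and 92.5 in MyD88pko, with 2.24 ± 0.23 (adjusted p = 2.09e-05). Atp5c1 (gamma subunit) rose by 0.61 and 1.00 and Atp5e (epsilon subunit) by 1.64 and 1.95 on the log2 scale.

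Atp5mpl, a small proteolipid bound to the membrane part, showed the largest rise of complex V in both genotypes. It stood at 5.09, 9.37 and 4.52 scaled CPM in healthy and 27.1, 27.3 and 26.2 in nephritic PodTOM, with a log2 fold change of 2.08 ± 0.28 (adjusted p = 9.18e-05). In MyD88pko it stood at 5.004 and 7.54 and 28.4, 30.2 and 40.1 scaled CPM, with 2.39 ± 0.33 (adjusted p = 1.74e-04). The c subunit of the ring is encoded by Atp5g1, Atp5g2 and Atp5g3, which differ in the import sequence and give the same mature protein. Atp5g3 stood at 11.9, 13.8 and 20.2 and 47.5, 41.7 and 49.4 scaled CPM in PodTOM and at 18.1 and 16.2 and 60.5, 57.9 and 62.8 in MyD88pko, with 1.59 ± 0.20 (adjusted p = 4.60e-05) and 1.81 ± 0.23 (adjusted p = 8.47e-05). Atp5g2 rose by 1.65 and 1.69, and Atp5g1 by 0.73 ± 0.22 in MyD88pko, with 0.52 ± 0.20 (adjusted p = 0.0627) in PodTOM. In TPM, Atp5g1 supplied 47.6 to 48.9% of the 3 in healthy and 42.2 to 45.0% in nephritic PodTOM, and 49.4 to 53.1% and 48.6 to 50.2% in MyD88pko. It had the largest transcript share of the 3 in every library. Atp5g2 and Atp5g1 share 37.5% and 13.9% of their 31-base words with transcripts of other genes, and their counts are less certain for that reason.

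Transcript length moved with these results. The 79 genes are short, with a median of 718 bases (range 370 to 2661) against 2183 bases for the 18249 protein-coding genes tested. The longest was Ndufa11, whose deposited length is uncertain, and with it its place in the class of 1500 to 3000 bases. Among other protein-coding genes with at least 1 CPM, the median log2 fold change with NTN was 0.54 in PodTOM and 0.56 in MyD88pko below 750 bases (649 genes), and -0.08 and -0.12 above 3000 bases (5039 genes). The 42 respiratory genes below 750 bases had medians of 1.01 and 1.48, and 85.7% of them rose in each genotype, against 32.7% and 31.3% of the other short genes. The 31 genes of 750 to 1500 bases had medians of 0.61 and 1.01, against 0.19 and 0.22. The 6 genes of 1500 to 3000 bases had medians of 0.28 and 1.18, against -0.04 and -0.03. The respiratory genes were thus above other genes of like length in each class that held any. Below 750 bases the other genes had higher medians than all genes tested (0.19 and 0.16). The gap to these other short genes was therefore smaller than the gap to all genes. From 1500 to 3000 bases the other genes had lower medians than all genes, so the gap to them was larger than the gap to all genes. The gaps were not compared between length classes. The part of length in their rise was not tested.

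**Figure D4:**
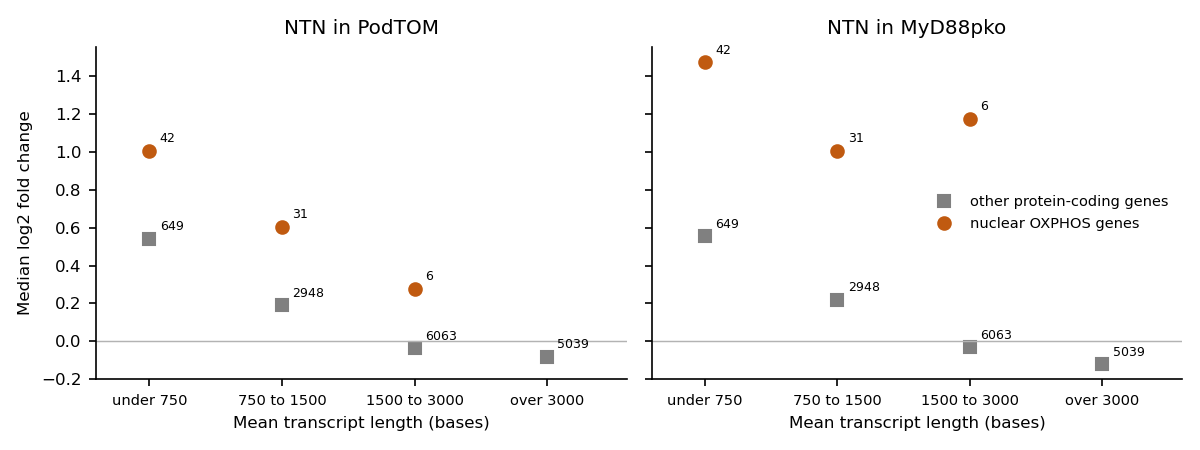
Median log2 fold change of NTN against untreated (vertical axis) by mean transcript length (horizontal axis, 4 classes in bases) for the nuclear respiratory genes (circles) and other protein-coding genes with at least 1 CPM (squares), in PodTOM (left) and MyD88pko (right). The numbers beside the points are genes. Short genes had higher medians, and the circles lay above the squares, the longest class of respiratory genes holding only 6.

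In healthy podocytes the genotypes did not differ detectably in these genes. None of the 79 passed the test by edgeR, against 0.0% of all genes higher and 0.0189% lower in MyD88pko. In the same test 10 of the 79 had an unadjusted p under 0.05, against 5.6% of all genes. The estimate was above 0 in 38 of the 79, against 44.5% of all genes, with a median of -0.01. By DESeq2, 1 passed, Uqcrc1, with -1.16 ± 0.26 (adjusted p = 0.00938). In edgeR its log2 fold change was -1.15 ± 0.27 (unadjusted p = 5.99e-04, adjusted p = 0.47), with both MyD88pko libraries below all 3 PodTOM libraries. For Atp5b the 95% interval of the healthy genotype difference ran from -0.68 to 0.14 and for Cox6a1 from -0.17 to 0.54 on the log2 scale, so changes of moderate size in either direction could not be seen with 2 and 3 libraries.

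With NTN the MyD88pko libraries tended to the higher side, without a single gene passing the test. By edgeR 0 of the 79 passed, where 0.0% of all genes were higher and 0.0614% lower. In the same test 19 of the 79 had an unadjusted p under 0.05, against 6.05% of all genes. DESeq2 called 2, Atp5c1 (0.63 ± 0.17, adjusted p = 0.0321) and Uqcrh (0.72 ± 0.20, adjusted p = 0.0396), a hinge protein of complex III. The estimate was above 0 in 74 of the 79, against 48.4% of all genes, with a median of 0.32 against -0.01 over all genes, and in 35 genes all 3 MyD88pko libraries were above all 3 PodTOM libraries, against 5.3% of all genes. Atp5c1 stood at 57.9, 49.7 and 54.7 scaled CPM in nephritic PodTOM and 86.7, 70.5 and 84.98 in nephritic MyD88pko (0.58 ± 0.17 (adjusted p = 0.411) by edgeR). Ndufa9, a subunit at the joint of the arms of complex I, had the largest estimate, with 32.3, 26.3 and 33.5 and 51.1, 45.5 and 57.6 scaled CPM (0.74 ± 0.22 (adjusted p = 0.414)). Atp5b had a log2 difference of 0.54 with a 95% interval from 0.18 to 0.89 before adjustment. A single library weighed on this pattern, since the third nephritic MyD88pko library was the highest of all 11 in scaled CPM in 63 of the 79 genes (22 in TPM, where the first was highest in 43), and the median without it was 0.19. Without the 3 libraries with most vomeronasal signal it was 0.58, a value that rests on that same library as the single nephritic MyD88pko library left. The satellite-like reads were also unequal, at 45749 to 82528 CPM in nephritic PodTOM and 19452 to 39488 in nephritic MyD88pko, and their part was not tested.

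**Figure D5:**
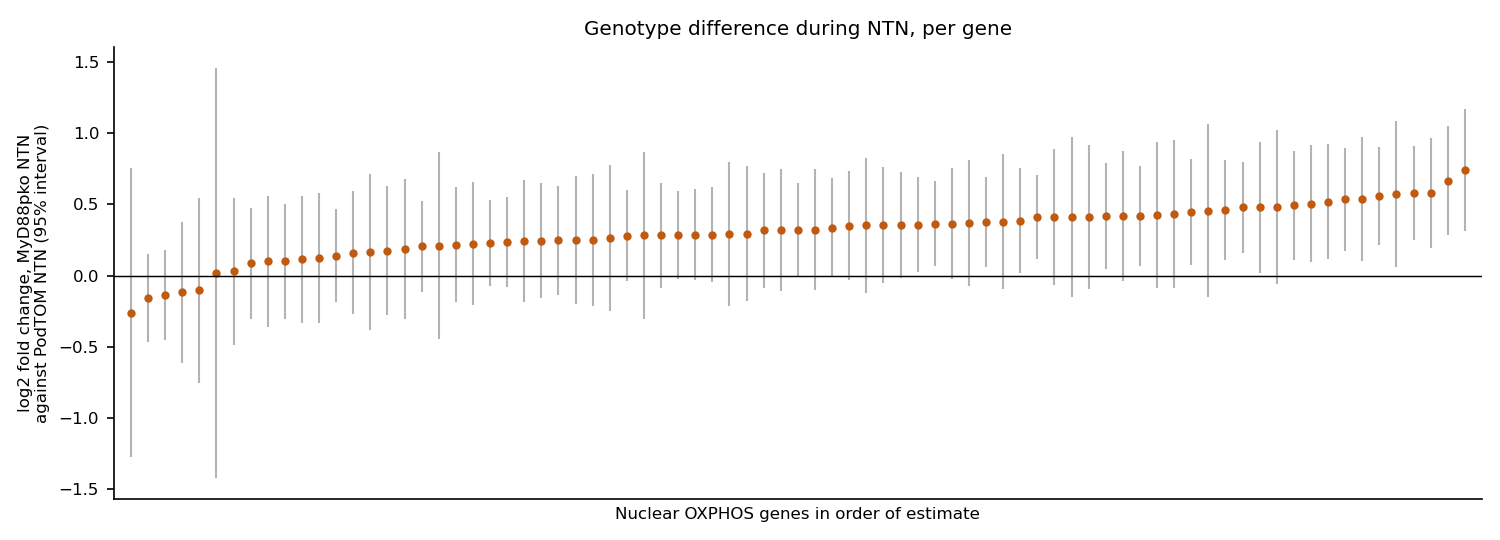
The log2 fold change of nephritic MyD88pko against nephritic PodTOM (vertical axis, points, edgeR) with its unadjusted 95% interval (bars) for each of the 79 genes, in order of size. The estimate was above 0 in 74 genes, with a median of 0.32, and none passed the test after adjustment.

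The difference between the 2 NTN responses was tested as an interaction. None of the 79 passed by edgeR (0.0% of all genes were larger and 0.00472% smaller in MyD88pko). In the same test 19 of the 79 had an unadjusted p under 0.05, against 5.82% of all genes. The median was 0.31 against 0.00318 over all genes. The estimate was larger in MyD88pko for 64 genes, against 50.3% of all genes. DESeq2 called Ndufs6 (1.32 ± 0.33, adjusted p = 0.0321) and Uqcrc1 (1.46 ± 0.34, adjusted p = 0.0172), whose edgeR estimates were 1.26 ± 0.33 (adjusted p = 0.467) and 1.40 ± 0.36 (adjusted p = 0.445). For both, the healthy MyD88pko libraries lay below the healthy PodTOM libraries, as given above.

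Other genes of the pathway were counted in the same fit, and the differences between the lists were not tested. The 13 mitochondrially encoded subunits, the partners of complexes I, III, IV and V, fell for the larger part: 7 fell and 1 rose in PodTOM, and 8 fell and 1 rose in MyD88pko, and these counts were the same under all 3 library scalings. Their summed level was 131413 to 164095 TPM in healthy and 61551 to 93917 TPM in nephritic PodTOM, and 121173 to 135055 and 74007 to 83515 TPM in MyD88pko. The mitochondrial subunits thus exceeded the nuclear ones 25.5 to 34.5 times in healthy and 7.02 to 10.6 times in nephritic PodTOM, and 23.3 to 27.9 and 5.42 to 6.37 times in MyD88pko, with no overlap between disease states. Named after their values were seen, mt-Nd4l fell the most, by 1.75 in PodTOM and by 1.79 in MyD88pko on the log2 scale. The 1 that rose was mt-Co2, a copper-binding subunit of complex IV, by 0.92 and 0.68.

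Of 50 assembly factors tested, mostly proteins that build the complexes without being part of them, 7 rose and 3 fell in each genotype. Over all genes, 15.9% rose in PodTOM and 11.3% in MyD88pko. The medians of the assembly factors were 0.09 and 0.21. Coa3 and Surf1, both needed for complex IV, rose in both (Coa3 by 1.06 and 1.30), and Bcs1l, which inserts the Rieske protein, fell in both (by 0.89 and by 0.93). Of 17 tricarboxylic acid cycle and pyruvate dehydrogenase genes, 2 rose (Fh1 and Idh3a) and Suclg2 fell in PodTOM, and 1 (Mdh2) rose in MyD88pko. Of 15 genes of electron carriers, ubiquinone synthesis and the ATP synthase inhibitor, 4 rose in PodTOM, and 3 rose and 1 fell in MyD88pko. Cycs, cytochrome c itself, rose by 0.64 and 1.11, and both subunits of the electron transfer flavoprotein rose, Etfb by 0.88 and 1.29 and Etfa by 0.58 and 0.99. Of 12 regulators of mitochondrial biogenesis, among them Ppargc1a, Nrf1, Gabpa, Yy1 and Tfam, none passed in PodTOM (by RLE scaling 1 fell) and 1, Tfb2m, rose in MyD88pko by 0.71. The respiratory subunits had medians of 0.83 and 1.30, against -0.56 and -0.75 for the mitochondrially encoded ones.

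Limits of counting concern single genes. Counts were summed over all transcripts of a gene, also those without a protein, and the share of counts on protein-coding transcripts moved with NTN for some genes, from 20.9% to 70.6% in PodTOM for Ndufb7 and from 61.2% to 27.5% for Ndufa5. With protein-coding transcripts alone, Ndufa5 gave 0.30 in PodTOM (adjusted p = 0.683) in place of 1.47, Ndufs4 gave 0.19 (adjusted p = 0.736) in place of 0.89, and Atp5l, at 0.46 ± 0.17 (adjusted p = 0.0542) over all transcripts, gave 1.25 (adjusted p = 0.000697). Of the 79 genes, 28 shared more than 10% of their 31-base words with transcripts of other genes, the median over all being 3.78%, and Ndufb4 shared 31.6% with Ndufb4c, a pseudogene read at a mean of 20.7 CPM.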

How the data were processed

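Podocyte libraries were preamplified with poly(T) and random primers, made with a Nextera kit and sequenced as read pairs. The authors trimmed reads with cutadapt and quantified transcripts of the mouse genome GRCm38 with kallisto, and the deposited estimated counts, 109282 transcripts per library, are neither scaled nor tested. Deposited transcript lengths and effective lengths are in bases. Preamplification and tagmentation can favour transcripts by length, which counts do not correct.

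Estimated counts were summed per gene (GENCODE M21, 107899 transcripts matched; the other 1383 held 0.49 to 0.691% of counts) and rounded. TPM was computed from counts and effective lengths. One edgeR 4.0.16 fit (R 4.3.3; TMM, robust quasi-likelihood F test, filterByExpr with a minimum count of 10, 4 group terms) covered all 11 libraries and 21180 genes, with Benjamini-Hochberg adjustment and a threshold of 0.05; all 79 reported genes passed the filter. The study tested transcripts with sleuth, which was not used here. Alternatives used DESeq2 1.42.0 and limma 3.58.1. The fit was tested on simulated data. Errors are SD for levels and standard errors for log2 fold changes. Depths limit precision for counting error only.

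Genes described by name were, by rule, the 10 higher and 10 lower members with the smallest adjusted p per comparison, the highest and lowest of each complex in TPM, isoform families and the catalytic or electron-carrying subunits; other members and the genes of other lists were named after their values were seen. The members, lists and tests were chosen with earlier results of these data known. One member enters the counts, medians and sums but is not reported here by name, and the full name of the Cre allele is likewise not given.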

Additional observations from a re-analysis of the deposited data

How the results depend on the processing

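The 61 calls on single genes covered by the naming rule were refitted under 22 or 23 alternatives each, and 37 of the 61 held throughout. Of 1402 values, 1269 kept the call, 130 lost it and 3 reversed, all for Ndufb2 in MyD88pko, at 0.21 with length-scaled TPM counts, 0.11 with log2(TPM + 1) and 0.12 with log2(TPM + 0.1). Leaving out libraries in turn, the genes that rose numbered 42 to 58 in PodTOM and 37 to 65 in MyD88pko, with medians of 0.76 to 0.87 and 1.15 to 1.40, and those that fell 0 to 1. The median genotype difference ranged from -0.05 to -0.00042 in healthy and from 0.19 to 0.39 in nephritic podocytes, and that between the responses from 0.19 to 0.40.

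In PodTOM, 36 rose with the vomeronasal covariate, and the median was 1.09 with it and 0.95 with length-scaled TPM counts. This covariate cannot be fully separated from disease state, as given above. In MyD88pko the median was 1.42 with library totals alone and with length-scaled TPM counts, 1.499 without the 3 libraries with most vomeronasal signal and 1.57 with the covariate. The count of genes that fell went to 0 in PodTOM with length-scaled TPM counts, with protein-coding transcripts only and under both vomeronasal settings. In MyD88pko this count went to 0 with library totals, no filter, only the groups compared and length-scaled TPM counts. It also went to 0 with both log2(TPM) fits and both vomeronasal settings. The call on Ndufb2 itself was lost under 10 of 23 alternatives in PodTOM. In MyD88pko it was lost under 13 of 23 and reversed under 3. DESeq2 called 1 lower in the healthy genotype comparison and 2 higher in each of the nephritic comparison and the difference of responses. The median genotype difference with NTN was 0.52 with log2(TPM + 1), 0.52 with log2(TPM + 0.1) and 0.58 without the 3 libraries, where 1 nephritic MyD88pko library remained, and that of the responses 0.49, 0.50 and 0.60. The cause was not tested. Library totals alone moved the median of all genes in MyD88pko from 0.16 to 0.29. Apart from the fits that left out libraries in turn, no other setting moved a count of calls among the 79 by over 1.5 times. Over all genes, 3368 rose in PodTOM and 2383 in MyD88pko, against 623 and 857 with the covariate, 1462 and 726 without the 3 libraries, 1350 and 1447 with log2(TPM + 1), and, leaving out libraries in turn, 1976 to 4016 and 667 to 3193. The genes that fell, 2105 and 1741, numbered 143 and 264 with the covariate and 1219 and 202 without the 3 libraries. In the 2 genotype comparisons and the difference of responses, 0 genes were higher and 4, 13 and 1 lower by edgeR, against 12, 60 and 23 higher and 24, 80 and 24 lower by DESeq2, and 47, 30 and 35 higher and 90, 141 and 56 lower with no filter. The number of members at 1 CPM stayed at 79. No paired analysis was possible because the labels give no replicate numbers that the groups share. Depth and 2 or 3 libraries a group limit the genotype comparisons, where the calls depended on the tool.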
